A study of Homo sapiens with 2 samples.

Results

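The 8 genes described here, CDH19, FOXD3, LGI4, ERBB3, GFRA3, INSC, ARHGAP15 and GPR17, are used as identity genes of the Schwann cell lineage, the peripheral glia that arise from the neural crest. They were found by symbol among the 36601 genes listed for both libraries, and all 8 had unique molecular identifiers (UMIs, counted transcripts) in both. They were chosen by their UMI counts in SOX10-positive cells of these same libraries, so their levels are given as descriptions and no test was made on them. The 10x Genomics 3' assay, which counts RNA ends per cell, was run on 1 library of human inner ear organoids grown in GelNB-CH, a gelatin-based hydrogel, and on 1 library of organoids grown in Matrigel, a basement membrane extract. Organoids of both groups were grown from human embryonic stem cells of the WA25 line that carry the SOX2 nuclear tdTomato reporter, and cells positive for the reporter were sorted on day 40. Both libraries therefore hold only cells that carried the reporter, from 1 line and with no replicate culture named, and the labels do not describe how the Matrigel organoids were embedded. With 1 library per group, a difference between libraries has no replicate check, no p-value was computed, and the 95% intervals below cover counting error only.

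Schwann cell precursors are crest-derived cells that travel along nerves and later give rise to Schwann cells and other crest derivatives. They depend on SOX10, a transcription factor of the neural crest and its glia, and on neuregulin signals from axons that are read by ERBB3 together with its partner ERBB2. SOX10 is also made by otic epithelium, by melanocytes and by some cartilage-forming cells, so SOX10 RNA alone does not mark glia in an inner ear organoid.

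The members were read in cells with at least 1 SOX10 UMI and under 5 UMIs of OC90, a gene of the otic vesicle epithelium that was used to keep otic cells out. These gated cells numbered 2147 of 18390 kept cells in GelNB-CH (11.7%, exact Clopper-Pearson 95% interval 11.2 to 12.1) and 3067 of 9800 in Matrigel (31.3%, 30.4 to 32.2). The gate set these shares in part: with at least 3 SOX10 UMIs, the share in Matrigel was 6.06 times that in GelNB-CH, against 2.68 times with 1 UMI. The libraries held 247006223 and 178672097 UMIs in 21743 and 10912 barcodes, and the median UMIs of a kept cell were 8578.5 in GelNB-CH and 14001.5 in Matrigel. Of the barcodes, 78 occurred in both libraries, and 1 of these was a gated cell in both.

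Short stretches of promoter sequence show where the members carry letters of the motif that SOX proteins bind. The 250 bases before the RefSeq start (GRCh38.p14) were searched on both strands for the motifs ACAAAG and ACAATG. The first reads CTTTGT on the other strand, the second reads CATTGT, and no matches of these can overlap. RefSeq starts were at hand for 7 members, with 3 starts for INSC and none for ERBB3. A match was present before a start of 4 of these 7 members (CDH19, FOXD3, GFRA3 and INSC), and for INSC before 1 of its 3 starts, so that 4 of 9 windows held a match. Of all 35116 promoter windows of this length, 13.7% held ACAAAG, 9.29% held ACAATG and 21.2% held either. The stretches below are from outside annotated exons and are read 5′ to 3′ along the gene's strand, with the match in capitals. They stand here to show the sequence around each match, and a match is a description, not a binding site.
CDH19, chr18:66604262-66604321, minus strand: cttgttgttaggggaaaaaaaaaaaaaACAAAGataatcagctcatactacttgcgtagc
GFRA3, chr5:138274717-138274776, minus strand: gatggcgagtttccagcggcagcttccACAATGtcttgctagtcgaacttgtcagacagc
INSC, chr11:15149003-15149062, plus strand, match on the other strand: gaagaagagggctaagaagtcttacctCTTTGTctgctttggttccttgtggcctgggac
The CDH19 match began 204 bases before the start, the GFRA3 match 128 and the INSC match 72.

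Positions in GRCh38 are from GENCODE. CDH19 spans chr18:66501083-66604138 on the minus strand and INSC chr11:15112424-15247208 on the plus strand, and no other annotated gene overlaps either. FOXD3 spans chr1:63323041-63325126 on the plus strand, with the antisense gene FOXD3-AS1 on the other strand. LGI4 spans chr19:35124513-35142451 on the minus strand and overlaps FXYD1 and AC020907.2 on the other strand and AC020907.5 on its own, and GPR17 spans chr2:127645864-127652639 on the plus strand and overlaps LIMS2 on the other strand. ERBB3 spans chr12:56076799-56103505 on the plus strand and shares that strand with the overlapping gene AC034102.2. GFRA3 spans chr5:138252379-138274671 on the minus strand and contains the pseudogene RPS27AP18, and ARHGAP15 spans chr2:143091362-143768352 on the plus strand, a stretch of 676991 bases with 17 small annotated genes or pseudogenes inside it. The sources used here do not say whether the deposited counts used strand, so UMIs of a member and of a gene that overlaps it cannot be told apart with certainty.

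Not every gated cell was glial. Clustering the gated cells without the 8 members, SOX10 and OC90 gave 13 sub-clusters, of which 5 raised at least 5 of 10 Schwann cell precursor markers (among them FABP7, S100B, NGFR, MOXD1, ITGA4, DHH, EDNRB and MIA) and are called glial here. The limit of 5 markers was set after the values were seen. Sub-clusters 0, 1 and 2 were Schwann cell precursor-like, sub-cluster 9 was precursor-like and led by cycling genes such as TOP2A and MKI67, and sub-cluster 12 stayed unnamed by the naming rule, since its median depth was 4091 UMIs and none of its 10 leading genes was a precursor marker. The glial sub-clusters held 945 gated cells in GelNB-CH (44.0%, 41.9 to 46.1) and 2142 in Matrigel (69.8%, 68.2 to 71.5). The other 1202 and 925 gated cells were cartilage-like, melanocyte-like or neuron-like, or unnamed cells led by mesenchymal, keratin or cycling genes, by PAX2 and CALB1, or by RFX4, SLC1A3 and ZIC1. No sub-cluster was named neural crest by the naming rule, which also asks for a lead over the other marker lists. Sub-clusters 3, 4 and 6 each raised 5 of 10 crest markers, the number that sufficed for the glial call. Sub-cluster 6 is the cartilage-like one, and 3 and 4 stayed unnamed. That no separate crest-like state was found thus rests on the naming rule.

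Within the glial cells, sub-cluster 0 (led by COL19A1, ZNF804B and CDH1) held 16.3% of gated cells in GelNB-CH and 38.4% in Matrigel. Sub-cluster 1 (led by ITGA1 and IL1RAPL2) held 17.2% and 17.6%, sub-cluster 2 (led by COL20A1, HSPB2 and CRYAB) 7.87% and 4.99%, and cycling sub-cluster 9 held 2.52% and 6.68%. Sub-cluster 12 held 4 and 65 cells, too few in GelNB-CH for a comparison. Glial cells were deeper in Matrigel, with a median of 13958.5 UMIs against 7227, so levels are given as UMIs per 1000000 UMIs of the cells summed (CPM) and shares of cells also after thinning every cell to 5000 UMIs.

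Just inside and outside the gate, the members' levels moved with it. CDH19 stood at 113 CPM in GelNB-CH and 195 in Matrigel in cells with 1 SOX10 UMI, and at 13.3 and 22.9 CPM in cells with none. The 3 precursor-like clusters of all kept cells held 30.4% (GelNB-CH) and 43.2% (Matrigel) of the cells with 1 SOX10 UMI, and 81.7% and 97.0% of those with 5 or more. At the OC90 limit, CDH19 stood at 69.9 and 227 CPM in cells with 2 to 4 OC90 UMIs and at 5.38 and 54.9 CPM in cells with 5 to 9, which the gate left out. ERBB3 kept 71.8 and 69.2 CPM in the cells with 5 to 9 OC90 UMIs, of which 1.89% and 7.14% lay in precursor-like clusters. The gate therefore took in non-glial cells at 1 SOX10 UMI and left out cells that held ERBB3. In GelNB-CH these left-out cells held little CDH19, whereas in Matrigel CDH19 was nearer to ERBB3.

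**Figure D1:**
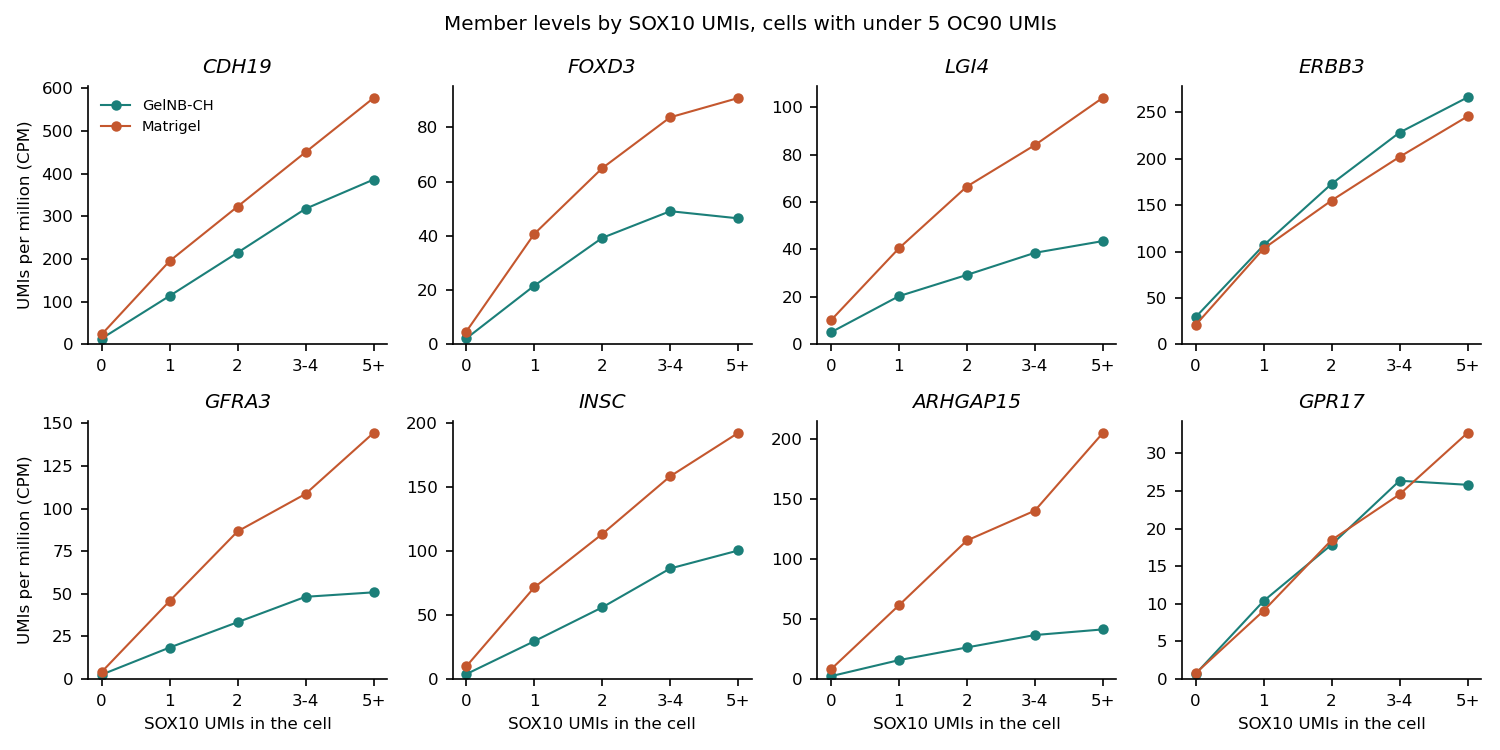
Levels of the 8 genes (y axis, CPM) against the SOX10 UMIs of the cell (x axis), in cells with under 5 OC90 UMIs, for GelNB-CH and Matrigel. Each point is 1 sum over cells. Between 0 and 5 or more SOX10 UMIs, CDH19 in GelNB-CH went from 13.3 to 386 CPM, and in Matrigel from 22.9 to 577.

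The level of each member was higher with each SOX10 step in both libraries, except that FOXD3 and GPR17 in GelNB-CH were no higher at 5 or more UMIs than at 3 to 4 (46.5 against 49.1 CPM for FOXD3, 25.8 against 26.4 for GPR17). Cells with more SOX10 UMIs were also deeper: the GelNB-CH median was 8002 UMIs at 1 SOX10 UMI and 11329.5 at 5 or more, and the Matrigel medians were 12990 and 16969. The part of depth in this order was not tested.

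Across all gated cells, the 8 members were higher in Matrigel than in GelNB-CH, 6 of them by at least 2-fold, and 0 were higher by that much in GelNB-CH. Of all 10199 genes with a larger level of at least 10 CPM, 1.76% were at least 2-fold higher in Matrigel and 1.85% in GelNB-CH. The median difference of the members was 1.26 on the log2(CPM + 1) scale, beside 0.03 over all genes. Within the glial sub-clusters the median was 0.47, beside 0.02 over all genes, and 1 of 8 members, ARHGAP15, was at least 2-fold higher in Matrigel (background 1.4%), with 0 at least 2-fold higher in GelNB-CH (background 0.814%). Over all kept cells 6 of 8 were at least 2-fold higher in Matrigel (background 1.41%), with a median of 2.13, and 0 at least 2-fold higher in GelNB-CH (background 0.71%). Since these levels chose the members, the counts describe them and support nothing. The median gap was thus smaller once glial cells were set against glial cells, and 2 members, ERBB3 and GPR17, were then lower in Matrigel.

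**Figure D2:**
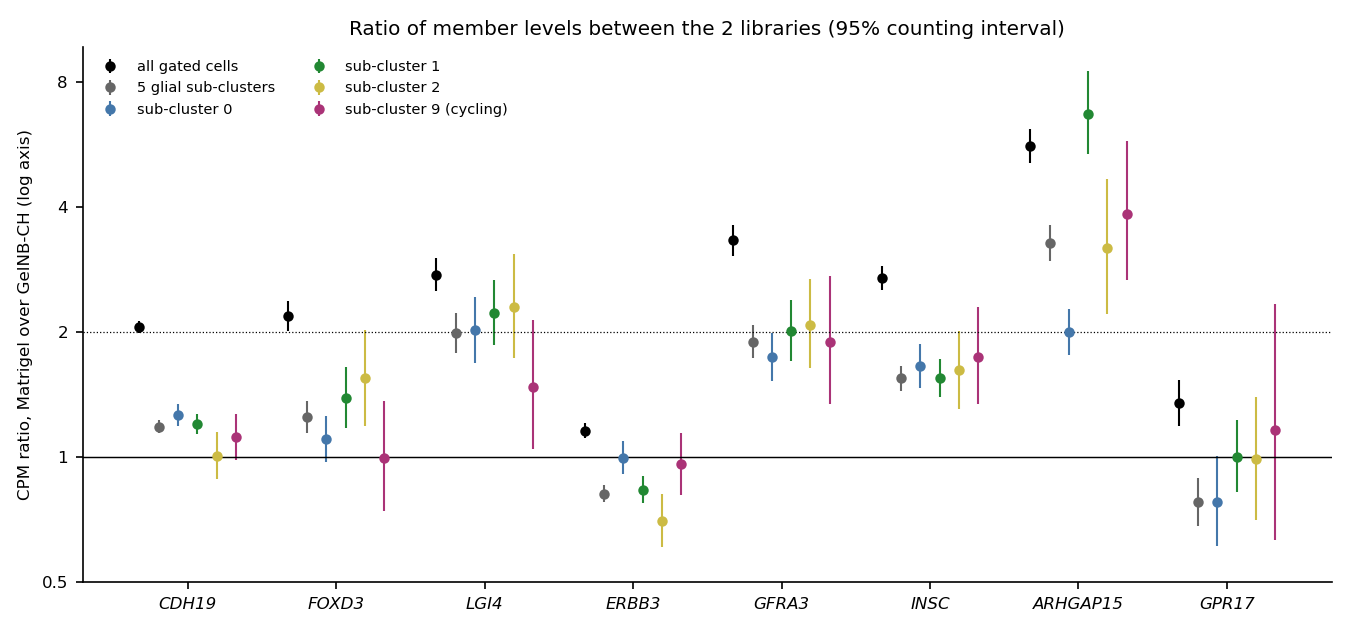
Ratio of CPM, Matrigel over GelNB-CH (y axis, log scale), for each gene in all gated cells, the 5 glial sub-clusters together and sub-clusters 0, 1, 2 and 9. Bars are exact 95% counting intervals, the solid line marks 1 and the dotted line 2. For ERBB3 and GPR17 the ratio was above 1 in all gated cells (1.16 and 1.35) and below 1 in the glial sub-clusters (0.818 and 0.781).

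Of the receptors, ERBB3 is the neuregulin receptor on which the survival and migration of Schwann cell precursors depend. Its level was 155 CPM in GelNB-CH and 179 in Matrigel over all gated cells, but 284 (272 to 297) and 233 (227 to 238) CPM in the glial sub-clusters. The direction therefore turned with the cells compared, at 1.16 times and then 0.818 times (0.779 to 0.859) the GelNB-CH level. In sub-cluster 0 the libraries were level, at 200 CPM in GelNB-CH and 199 in Matrigel. Sub-cluster 1 stood at 359 and 300 CPM and sub-cluster 2 at 333 and 234 CPM, with ratios of 0.836 (0.777 to 0.900) and 0.704 (0.608 to 0.816). The lower Matrigel level was not confined to these. Among the finer sub-clusters described below, a group wholly in sub-cluster 0 stood at 281 and 207 CPM, a ratio of 0.739 (0.632 to 0.867). Another group, nearly all in sub-cluster 0, went the other way, at 136 and 180 CPM (1.32, 1.02 to 1.73). After thinning, 70.1% of GelNB-CH and 66.5% of Matrigel glial cells had an ERBB3 UMI.

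GFRA3, the co-receptor through which the ligand artemin signals by way of RET, was at 29.5 CPM in GelNB-CH and 97.9 in Matrigel over gated cells and at 72.2 (66.2 to 78.5) and 137 (133 to 141) CPM in the glial sub-clusters. The glial ratio was 1.90 (1.73 to 2.08). GFRA3 was higher in Matrigel in each of the larger sub-clusters, at 88.4 and 154 CPM in sub-cluster 0, 56.2 and 113 in sub-cluster 1 and 85.2 and 178 in sub-cluster 2. In both libraries it was lower in sub-cluster 1 than in sub-clusters 0 and 2, the reverse of CDH19. A UMI was seen in 25.2% of thinned GelNB-CH glial cells and 39.7% of thinned Matrigel glial cells.

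GPR17 is a G protein-coupled receptor best known from committed oligodendrocyte precursors of the central nervous system. It was at 16.0 CPM in GelNB-CH and 21.6 in Matrigel over gated cells, and at 38.8 (34.5 to 43.6) and 30.3 (28.4 to 32.3) CPM in the glial sub-clusters. In sub-cluster 0 it was at 28.4 and 22.2 CPM. It was higher in sub-cluster 1, at 47.6 and 47.8 CPM, and in sub-cluster 2, at 56.1 and 55.6 CPM, where the libraries were alike to within counting error (ratios of 1.00, 0.824 to 1.23, and 0.991, 0.707 to 1.40). Sub-cluster 0 held a larger share of gated cells in Matrigel, and the GPR17 ratio within it was 0.781 (0.612 to 1.01). The part of these shares in the lower glial level of Matrigel was not tested.

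LGI4, a secreted protein that Schwann cells need for axon sorting and myelination, is the ligand of the set. It was at 27.2 CPM in GelNB-CH and 74.8 in Matrigel over gated cells and at 50.0 (45.0 to 55.3) and 99.2 (95.8 to 103) CPM in the glial sub-clusters, a ratio of 1.98 (1.78 to 2.22). The difference stood in every named glial sub-cluster: 46.2 and 93.3 CPM in sub-cluster 0, 49.0 and 109 in sub-cluster 1, 61.0 and 140 in sub-cluster 2 and 54.5 and 80.3 in cycling sub-cluster 9. A UMI was seen in 21.0% of thinned GelNB-CH glial cells and 36.0% of thinned Matrigel glial cells.

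**Figure D3:**
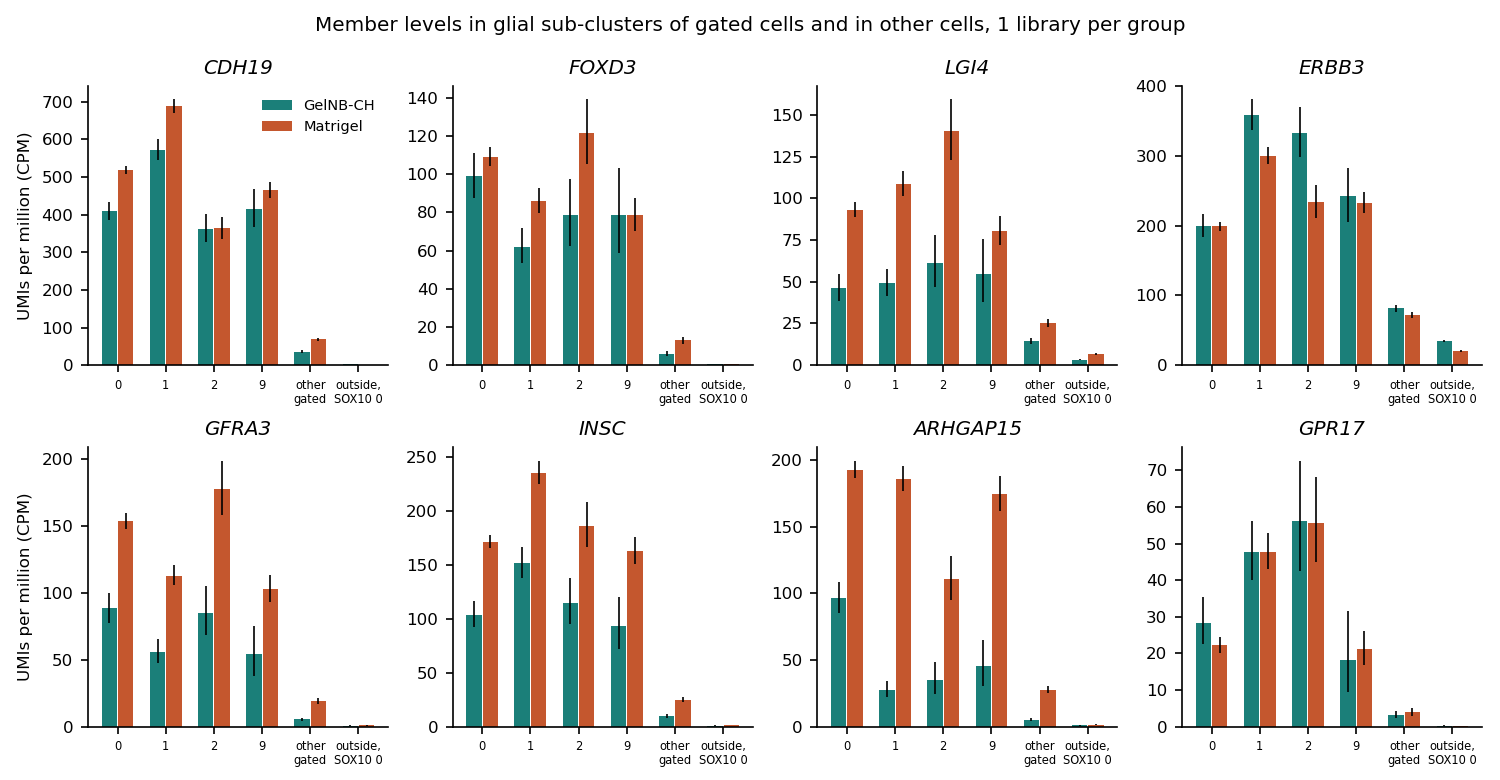
Levels of the 8 genes (y axis, CPM) in glial sub-clusters 0, 1, 2 and 9, in the other gated cells, and in cells outside the precursor-like clusters with no SOX10 UMI, for 1 GelNB-CH and 1 Matrigel library. Lines on the bars are exact Poisson 95% intervals. In sub-cluster 1, ARHGAP15 stood at 27.8 (GelNB-CH) and 186 (Matrigel), while GPR17 stood at 47.6 and 47.8.

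FOXD3 is the transcription factor of the set and acts in premigratory neural crest and in early crest-derived glia. It was at 32.4 CPM in GelNB-CH and 70.8 in Matrigel over gated cells and at 79.6 (73.3 to 86.2) and 99.5 (96.0 to 103) CPM in the glial sub-clusters, a ratio of 1.25 (1.14 to 1.37). Sub-cluster 0 held 98.7 and 109 CPM, with a ratio of 1.10 whose interval (0.973 to 1.26) included 1, and cycling sub-cluster 9 held 78.7 and 78.4 CPM. The gap was wider in sub-cluster 1, at 62.0 and 86.1 CPM, and in sub-cluster 2, at 78.4 and 121 CPM. The antisense gene FOXD3-AS1 was at 131 and 157 CPM in the glial sub-clusters, a ratio of 1.20, and so stood between the libraries much as FOXD3 did.

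CDH19 is a cadherin of migrating crest cells and Schwann cell precursors. Its level was 192 CPM in GelNB-CH and 394 in Matrigel over gated cells, and 468 (453 to 484) and 555 (547 to 563) CPM in the glial sub-clusters. The ratio thus went from 2.05 to 1.18 (1.14 to 1.23). Sub-cluster 1 held the higher level in both libraries, at 572 and 688 CPM, against 410 and 517 in sub-cluster 0 and 362 and 365 in sub-cluster 2. After thinning, 81.8% of GelNB-CH and 80.9% of Matrigel glial cells had a CDH19 UMI. Among glial cells of 8000 to 16000 UMIs the CDH19 ratio was 0.892, so its direction did not hold at like depth.

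INSC encodes inscuteable, an adaptor that links the polarity protein PAR3 to the spindle-orienting protein LGN. It was at 50.6 CPM in GelNB-CH and 136 in Matrigel over gated cells and at 124 (116 to 132) and 191 (186 to 196) CPM in the glial sub-clusters, a ratio of 1.55 (1.44 to 1.66). The ratio varied little between sub-clusters, at 1.66 in sub-cluster 0, 1.55 in sub-cluster 1, 1.62 in sub-cluster 2 and 1.74 in sub-cluster 9. A UMI was seen in 43.4% of thinned GelNB-CH glial cells and 57.2% of thinned Matrigel glial cells.

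ARHGAP15 encodes a GTPase-activating protein for RAC and is otherwise known from blood cells. It was at 23.7 CPM in GelNB-CH and 133 in Matrigel over gated cells and at 56.5 (51.2 to 62.1) and 185 (180 to 189) CPM in the glial sub-clusters, a ratio of 3.27 (2.96 to 3.62). The ratio differed between sub-clusters: 2.00 (1.76 to 2.27) in sub-cluster 0, 6.70 (5.36 to 8.49) in sub-cluster 1, 3.18 (2.21 to 4.67) in sub-cluster 2 and 3.85 (2.67 to 5.75) in sub-cluster 9. In GelNB-CH, ARHGAP15 was high in sub-cluster 0 (96.6 CPM) and low in sub-clusters 1 and 2 (27.8 and 34.8 CPM), whereas in Matrigel sub-clusters 0 and 1 were near each other (193 and 186 CPM). The 6 immune genes listed summed to 10.6 and 8.08 CPM in the same glial cells, most of it AIF1 (7.26 and 4.64 CPM), with the defining gene PTPRC at 0.134 and 0.316 CPM and TYROBP at 0 and 0.0316 CPM.

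Within single glial sub-clusters the counts at least 2-fold higher in Matrigel were 1 of 8 in sub-cluster 0 (LGI4, background 2.42%), 3 in sub-cluster 1 (LGI4, GFRA3 and ARHGAP15, background 1.57%), 3 in sub-cluster 2 (the same genes, background 3.12%) and 1 in sub-cluster 9 (ARHGAP15, background 4.13%). In none of these 4 was a member at least 2-fold higher in GelNB-CH, against a background of 1.31%, 1.36%, 4.04% and 4.16%. Cutting the gated cells more finely (resolution 1 in place of 0.5) gave 7 finer sub-clusters, mostly of glial cells, with at least 50 cells from each library. LGI4 was higher in Matrigel in all 7, at ratios of 1.50 to 2.18, and INSC in all 7, at 1.38 to 1.81, each interval above 1. ARHGAP15 ranged from 0.990 to 3.95, with 6 of 7 intervals above 1, and GFRA3 from 1.03 to 2.39, with 5 of 7. CDH19 (1.01 to 1.22) and FOXD3 (0.973 to 1.63) were closer to 1. ERBB3 ranged from 0.739 to 1.32 and GPR17 from 0.573 to 1.31, on both sides of 1.

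The 6.70-fold ARHGAP15 ratio of sub-cluster 1 came with a group of cells found in Matrigel. One finer sub-cluster held 7 GelNB-CH and 320 Matrigel cells, of which 274 were in sub-cluster 1, and its Matrigel cells stood at 277 CPM of ARHGAP15. The finer sub-cluster that held 416 other cells of sub-cluster 1 stood at 31.6 CPM in GelNB-CH and 66.3 in Matrigel, a ratio of 2.10 (1.58 to 2.82). A further 212 cells of sub-cluster 1 lay in a finer sub-cluster shared with 304 cells of sub-cluster 2. It stood at 29.9 CPM in GelNB-CH and 110 in Matrigel, a ratio of 3.68 (2.72 to 5.06). The part of each group in the 6.70-fold ratio was not tested. A cluster that comes almost wholly from 1 library may be that library and not a cell state.

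The members were found together in cells. After thinning to 5000 UMIs, glial cells held a median of 3 of the 8 members in GelNB-CH and 4 in Matrigel, and 37.0% (33.7 to 40.4) and 56.3% (54.1 to 58.4) of cells held 4 or more. A cell with none of the 8 was rare among glial cells, at 1.94% and 0.819%. Among the other gated cells 60.9% and 65.0% held none and 1.25% and 5.76% held 4 or more. Among those other cells, the unnamed cycling sub-cluster 5 (136 and 137 cells) met 1 of the 10 precursor markers but held CDH19 at 80.9 and 279 CPM, ARHGAP15 at 21.3 and 119 CPM and INSC at 22.2 and 97.8 CPM. It gave 834 of the 1078 CDH19 UMIs of the other gated Matrigel cells and 171 of 476 in GelNB-CH. Outside the precursor-like clusters, in cells with no SOX10 UMI, 83.9% and 86.3% held none and 0.0274% and 0.0216% held 4 or more. Those clusters were made with the members left in, so the low shares outside them were in part set in advance. Without thinning, 54.9% of GelNB-CH and 89.4% of Matrigel glial cells held 4 or more.

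**Figure D4:**
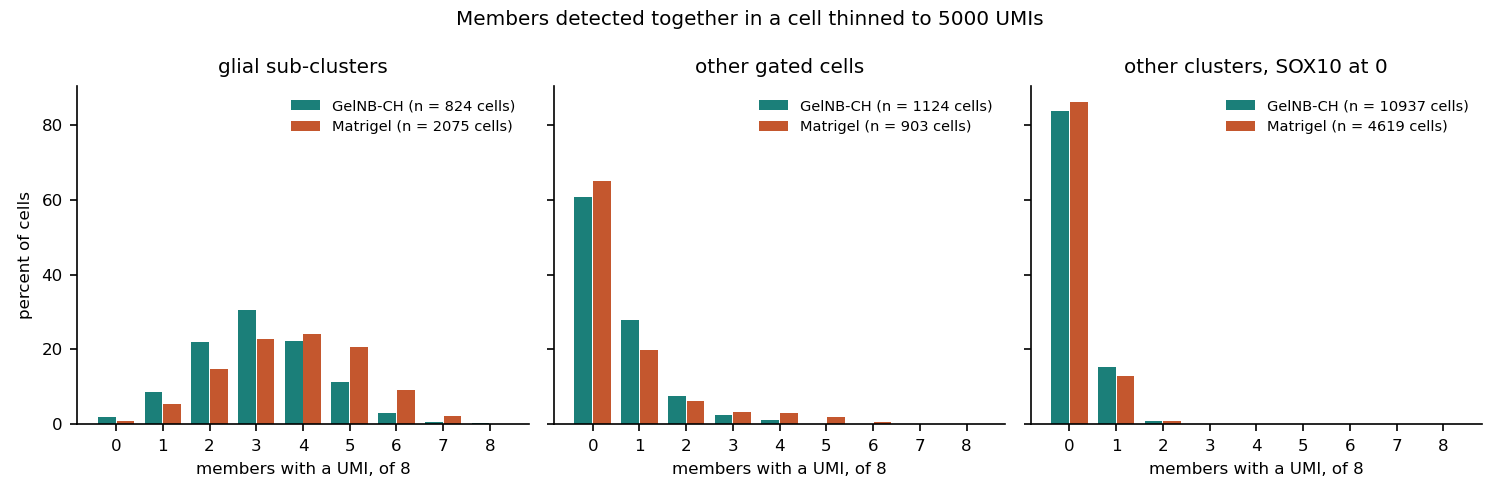
Percent of cells (y axis) by the number of the 8 genes with a UMI (x axis) after each cell was thinned to 5000 UMIs, in glial sub-clusters, other gated cells, and cells outside the precursor-like clusters with no SOX10 UMI. Of the glial cells, 121 in GelNB-CH and 67 in Matrigel had under 5000 UMIs and are not in the plot.

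Among glial cells of 1 library the members hardly varied together. Over the 28 pairs, in cells thinned to 5000 UMIs, Pearson's r of log counts was at most 0.138 in GelNB-CH (ERBB3 with INSC, 824 cells) and at most 0.203 in Matrigel (GFRA3 with ARHGAP15, 2075 cells). GFRA3 and ARHGAP15 were both present in 6.55% and 22.1% of these cells. Such low values in sparse counts are given as a description only.

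Whether GPR17 set some glial sub-clusters apart depended on the limit used. By the rule used, sub-clusters whose GPR17 level is at least 0.333 of the highest, all 5 glial sub-clusters passed, so the GPR17 cells were the same 44.0% and 69.8% of gated cells as the glial cells. With a limit of 0.667 of the highest, sub-clusters 1 and 2 passed, with 25.1% of gated cells in GelNB-CH and 22.6% in Matrigel. GPR17 was among the leading genes of sub-cluster 2, which was found without it. In glial cells thinned to 5000 UMIs, a GPR17 UMI was seen in 17.0% (14.5 to 19.7) for GelNB-CH and in 13.3% (11.9 to 14.9) for Matrigel. Unthinned, the shares were 23.0% and 29.1%, in the other order.

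Detection of other members was compared between glial cells with and without a GPR17 UMI. No intervals were computed for these shares, and the part of the sub-clusters in them was not tested. At 5000 UMIs per cell, INSC was detected in 53.6% of the 140 GelNB-CH cells with GPR17 and in 41.4% of the 684 without, and in 65.7% of 277 and 55.9% of 1798 Matrigel cells. CDH19 was detected in 86.4% and 80.8% in GelNB-CH and in 84.8% and 80.3% in Matrigel. For ERBB3 the shares were 76.4% and 68.9% in GelNB-CH and 70.0% and 66.0% in Matrigel. For GFRA3 they were 25.7% and 25.1% in GelNB-CH and 47.7% and 38.5% in Matrigel. FOXD3 was seen slightly less often with GPR17, at 28.6% and 31.6% in GelNB-CH and 34.3% and 36.4% in Matrigel. Its mean UMIs per cell were alike in GelNB-CH, at 0.421 with and without GPR17, and were 0.466 and 0.509 in Matrigel. ARHGAP15 was seen less often with GPR17 in GelNB-CH, at 17.1% and 22.8%, but not in Matrigel, at 46.9% and 44.3%. Of the listed genes of the oligodendrocyte lineage, OLIG1 was at 0.269 and 0.0631 CPM in glial cells, OLIG2 at 0.134 and 0 CPM, and NKX2-2 at 0 in both libraries. Others of that list were higher. In glial cells with no GPR17 UMI, PCDH15 was at 3.16 CPM in GelNB-CH and 8.40 in Matrigel, and CSPG4 at 4.39 and 3.92 CPM. The 8 genes of that list summed to 9.95 and 14.8 CPM.

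The gate also left out cells of the precursor-like clusters. In the precursor-like clusters of all kept cells, 285 GelNB-CH and 244 Matrigel cells had no SOX10 UMI, with median depths of 6358 and 9967.5 UMIs. CDH19 stood there at 474 and 555 CPM, 101% and 100.0% of the level in gated glial cells. The members were not left out when these clusters were made, and CDH19 was the first leading gene of each. Levels near the gated ones were thus in part set in advance and are a description only. INSC was at 119 and 213 CPM and FOXD3 at 71.8 and 105 CPM, near their gated levels. GPR17 was lower than in the gated glial cells of both libraries, at 19.8 and 16.6 CPM, or 50.9% and 54.7% of that level. GFRA3 was at 77.5 CPM in GelNB-CH, 107% of the gated level, and at 82.6 CPM in Matrigel, 60.3%.

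Outside the precursor-like clusters, the members were scarce in cells with no SOX10 UMI, apart from ERBB3 and LGI4. The precursor-like clusters were made with the members left in, so this scarcity was in part set in advance. In the 12525 GelNB-CH and 4884 Matrigel cells there with no SOX10 UMI, the median member stood at 1.05% and 0.740% of its glial level. Relative to its glial level CDH19 was lowest, at 0.501% and 0.271% (2.34 and 1.51 CPM). It varied between these clusters, at 10.3 and 4.23 CPM in the one led by CRYM. A CDH19 UMI was seen in 1.47% of these cells (1.27 to 1.70) at a median of 8079 UMIs and in 1.64% (1.30 to 2.03) at 13006 UMIs, against 87.1% and 93.8% of glial cells at 7227 and 13958.5 UMIs. GPR17 was at 0.281 and 0.156 CPM, from 32 and 11 UMIs. The part of free RNA in these low levels was not tested. Cells with SOX10 UMIs could hold more. The melanocyte-like cluster, at any SOX10 count, held CDH19 at 134 CPM from 111 UMIs in 78 GelNB-CH cells. Its 5 Matrigel cells held CDH19 at 33.9 CPM from 3 UMIs.

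ERBB3 and LGI4 were higher in particular lineages. In otic epithelium-like cells with no SOX10 UMI, ERBB3 was at 62.7 CPM (GelNB-CH) and 54.9 CPM (Matrigel), or 22.1% and 23.6% of its glial level, where CDH19 was at 0.200% and 0.103%. Cartilage-like cells held ERBB3 at 70.2 and 51.5 CPM, whereas mesenchyme-like cells held 6.62 and 3.78 CPM. LGI4 reached 16.7 and 23.1 CPM, 33.3% and 23.3% of its glial level, in cells of the unnamed cluster led by CRYM and PAX3, and 8.68% and 10.1% in cartilage-like cells. ARHGAP15 was at 8.78% and 5.35% of its glial level in the neuron-like cluster led by STMN2 and STMN4. INSC and FOXD3 stayed at or under 2.81% in the otic epithelium-like, cartilage-like, mesenchyme-like and neuron-like classes. Clusters of few cells also held members: in the unnamed cluster whose leading genes include PCDH15 and PTPRQ, genes of sensory hair cells, INSC was at 70.0 CPM (36.2 to 122) from 12 UMIs in 14 GelNB-CH cells and 58.8 CPM (28.2 to 108) from 10 UMIs in 9 Matrigel cells. Muscle-like cells held ERBB3 at 189.6 CPM (141 to 249) from 51 UMIs in 18 GelNB-CH cells and 168 CPM (76.8 to 319) from 9 UMIs in 2 Matrigel cells. The members' counts were thus not in 1 ratio to each other across lineages.

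**Figure D5:**
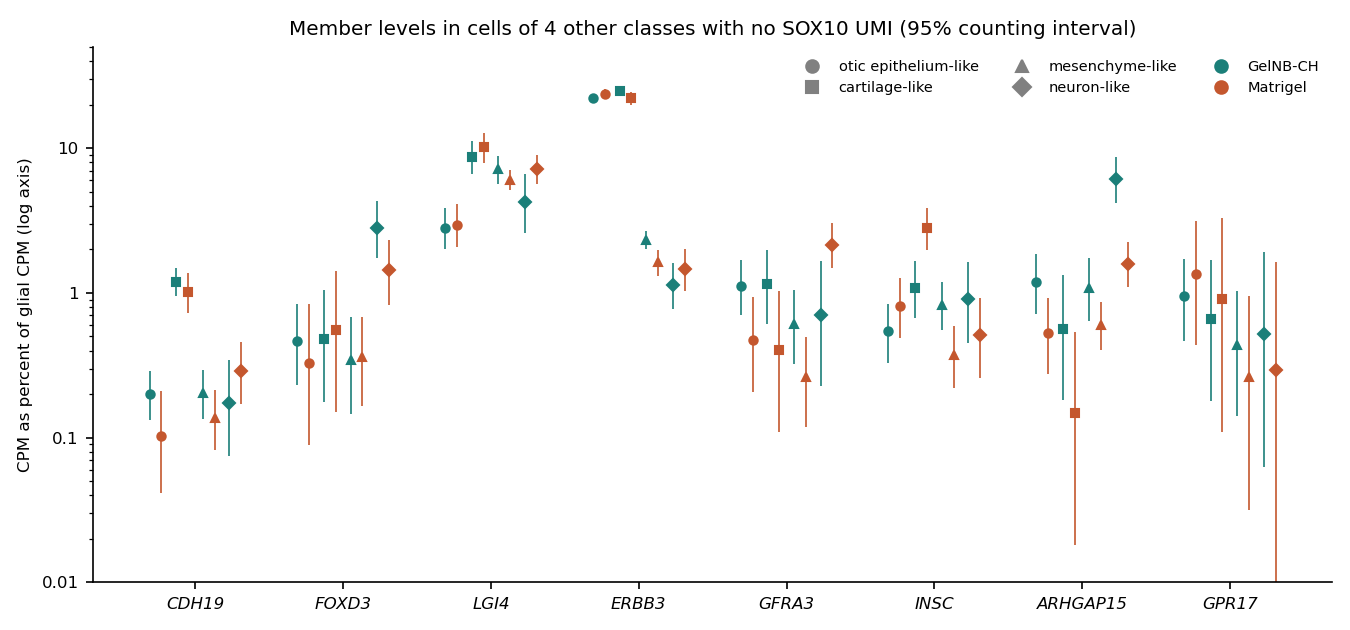
CPM of each gene in otic epithelium-like, cartilage-like, mesenchyme-like and neuron-like cells with no SOX10 UMI, as a percent of its CPM in the glial sub-clusters of the same library (y axis, log scale from 0.01 to 50), for GelNB-CH and Matrigel. Bars are exact 95% counting intervals. ERBB3 lay at 22.1% to 24.7% in otic epithelium-like and cartilage-like cells, and CDH19 at 0.103% to 0.290% in otic, mesenchyme-like and neuron-like cells.

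ERBB3 also differed from the other members in the genes whose levels were most like its own over clusters. Pearson's r of log2(CPM + 1) was taken over 42 points, each a cluster in 1 library, which share libraries and depth. Among genes that are not members, those closest to ERBB3 were CMTM5 (0.94) and SOX10 (0.93). The other members had an r with SOX10 of 0.41 (LGI4) to 0.68 (GPR17). Outside the set, FOXD3 was closest to FOXD3-AS1 (0.98), CDH19 to FOXD3-AS1 (0.96), INSC to OLFML2A (0.96), ARHGAP15 to FOXD3-AS1 (0.94) and GPR17 to AC131009.2 (0.96). GFRA3 was closest to DHH (0.94), the Desert hedgehog ligand of Schwann cells, and LGI4 to LST1 (0.92). Within the set, INSC and FOXD3 were closest to each other (0.97), GFRA3 (0.94) and ARHGAP15 (0.95) were closest to FOXD3, and the closest member to ERBB3 was GPR17 (0.71).

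Of the pathway genes around the members, NRTN, TFAP2B and CDH11 were 2-fold apart in the glial sub-clusters, all higher in GelNB-CH. Of all genes there, 1.4% were 2-fold higher in Matrigel and 0.814% in GelNB-CH. The pathway lists are short, and their shares were not tested against these. Of 6 neuregulin and ERBB partners, 2 reached the 10 CPM needed for a call and 0 were 2-fold apart: ERBB2 was at 24.6 CPM in GelNB-CH and 27.1 in Matrigel, and ERBB4 at 154 and 109 CPM. Of 7 GDNF family genes, 4 reached 10 CPM, 0 were 2-fold higher in Matrigel and 1 was 2-fold higher in GelNB-CH, the ligand NRTN at 13.0 and 4.01 CPM. RET, the signalling partner of GFRA3, was at 0.269 and 0.158 CPM from 2 and 5 UMIs, while the alternative partner NCAM1 was at 104 and 153 CPM. ADAM22, a receptor of LGI4, was at 3.36 and 3.82 CPM and ADAM23 at 72.9 and 73.0 CPM. ADAM23 was the 1 gene of 6 in that list that reached 10 CPM.

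Of 6 inscuteable partners, 5 reached 10 CPM and 0 were 2-fold apart, with PARD3 at 496 and 455 CPM and GPSM2, which encodes LGN, at 39.8 and 38.2 CPM. Of 12 SOX10 partners and crest regulators, 10 reached 10 CPM, 0 were 2-fold higher in Matrigel and 1 was 2-fold higher in GelNB-CH, TFAP2B at 105 and 52.4 CPM, while PAX3 was at 106 and 64.6 CPM. Of 5 other cadherins, 4 reached 10 CPM and 1 was 2-fold higher in GelNB-CH, CDH11 at 13.0 and 4.76 CPM. Of the 10 precursor markers 0 were 2-fold apart in the glial sub-clusters, with S100B at 1997 and 3164 CPM and EDNRB at 519.6 and 668 CPM. MBP, a myelin gene, was at 10.5 and 25.9 CPM and was the 1 gene 2-fold apart among 3 of 10 maturation genes that reached 10 CPM.

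Markers of other cell types were also present in the glial sub-clusters at unequal levels. The summed level of 6 muscle genes was 80.9 CPM in GelNB-CH and 11.9 in Matrigel, most of it ACTC1 (73.0 and 10.5 CPM), with MYOD1 at 0.134 and 0 CPM. The 10 mesenchyme genes summed to 926 and 1386 CPM, with COL1A1 at 357 and 551 CPM but POU3F4 at 0 in both. The 10 neural crest genes summed to 574 and 461 CPM, with PAX7 at 0 and 0.0316 CPM. The 10 genes of central nervous system progenitors summed to 192 and 100.2 CPM, with SIX6 and RAX at 0 in both. Single genes of other lists were 2-fold higher in GelNB-CH as well, KRT19 at 28.4 and 9.72 CPM and MATN4, a cartilage gene, at 33.3 and 8.93 CPM. In such summed counts fewer cells of a type and less RNA per cell cannot be told apart. The part of these cells, or of their RNA, in the members' ratios was not tested.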

How the data were processed

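The authors deposited whole-number UMI counts per gene and barcode, filtered to called cells and not normalized. They were made with Cell Ranger, version 4.0.0 per the labels' protocols and 7.1.0 per the file headers. STAR and GRCh38 are named in the processing notes of the submitters. The annotation, and whether introns or strand were used, are not given in the sources used here. Cells with at least 1000 genes and at most 15% mitochondrial UMIs were kept, and doublets marked by Scrublet (13.5% of GelNB-CH and 6.55% of Matrigel barcodes) were removed. All kept cells (resolution 1, with no gene left out) and gated cells (resolution 0.5, without the 8 members, SOX10 and OC90) were clustered with scanpy 1.11.5. Both used 2000 variable genes, 30 components and 15 neighbours, and clusters were named from marker lists. Finer sub-clusters used resolution 1.

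UMIs were summed over cells and scaled to CPM. A gene counted as apart at 2-fold or more with a larger level of at least 10 CPM. Intervals are exact Poisson, conditional binomial or Clopper-Pearson and cover counting error only. The conditional binomial interval alone was checked, on simulated Poisson counts that hold no other spread. UMI totals per library are given in the text. A count of 0 allows a level of up to 3 counts of the total. An edgeR 4.0.16 TMM factor served as an alternative scale. The genes named are the 8 members, SOX10, OC90 and FOXD3-AS1, genes of fixed pathway and marker lists, and for each member genes from the 3 most like it; some items are not reported here. The members and lists were chosen with earlier results of these data known. No gene was tested because each group is 1 library.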

Additional observations from a re-analysis of the deposited data

How the results depend on the processing

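The share of gated cells in Matrigel over that in GelNB-CH (2.68) was 4.06 and 6.06 with gates at 2 and 3 SOX10 UMIs, 2.98 with OC90 at 0, 2.34 with OC90 under 20 and 2.43 after thinning. The median log2 difference of the members (1.26) was 1.00 and 0.90 at those SOX10 gates, 1.13 and 1.46 at those OC90 limits, 1.06 after thinning, 1.44 in cells of 8000 to 16000 UMIs, 1.08 without cells of named non-glial classes and 0.49 with glial sub-clusters weighted alike. Added after seeing the data, it was 0.47 in glial sub-clusters, 0.49 without the cycling one, 0.59 at 8000 to 16000 UMIs and 0.46 without the low-UMI one. The count at least 2-fold apart (6 of 8) was 3 at 3 SOX10 UMIs and 2 with glial sub-clusters weighted alike, and 1, 2, 2 and 1 in those added settings. The CDH19 ratio turned to 0.892 in glial cells of 8000 to 16000 UMIs. ERBB3 turned to 0.940 at 3 SOX10 UMIs and 0.896 with like weights, and to 0.818, 0.806, 0.933 and 0.811 in glial sub-clusters, without the cycling one, at like depth and without the low-UMI one. GPR17 turned to 0.934 with like weights and to 0.781, 0.776, 0.901 and 0.779 in those settings. The GPR17 state's share ratio (1.59) was 1.84 and 5.25 with at least 1 and 3 GPR17 UMIs, 1.91 and 5.13 with doublets kept, and, added later, 0.903 by the limit of 0.667 of the highest level, 1.21 at 1 UMI of 5000, 1.27 and 3.16 at 1 and 3 UMIs in glial cells, and 0.786 at 1 UMI of 5000 in glial cells. Member levels outside the precursor-like clusters (1.05% in GelNB-CH, 0.740% in Matrigel) were 1.31% and 1.19% in all cells there and 1.48% and 1.00% with doublets kept. The cause was not tested. With 1 library per group, no library could be left out. The share of glial cells with a GPR17 UMI changed order with depth, from 23.0% and 29.1% to 17.0% and 13.3% after thinning. No paired analysis was possible because each group is 1 library and no test was made.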
